A study of Homo sapiens with 12 samples.

Results

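Gene expression under vincristine (VCR) was compared between cells carrying a PTPN21 construct (PTPN21+VCR, 3 libraries) and cells carrying the control vector (NC+VCR, 3 libraries), 6 of the 12 libraries of the series. The genes described are the 10994 of 60671 listed genes that had a mean FPKM of at least 1 over these 6 libraries. FPKM are fragments scaled to gene length and to the fragments of the library. The 16 apoptosis genes named in the study's text for its own RNA-seq panel were tested with the rest but are not described here.

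All 12 libraries are labelled Jurkat, a line derived from a human T cell acute leukemia. The labels give the genotype of the control cells as WT, while the methods describe lentiviral transduction with a GFP vector. The PTPN21 cells received a vector in which the SFFV promoter drives PTPN21 with a FLAG tag. Each genotype was treated for 48 h with vincristine or, in the NC+DMSO and PTPN21+DMSO groups, with DMSO, the solvent, in 3 libraries each. The sources used here do not state which vincristine dose was used for them. Nothing states that replicates came from separate transductions, so p-values measure the spread between these libraries, which may be technical.

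PTPN21 is a protein tyrosine phosphatase with a FERM domain, a module that places proteins at the membrane and the cytoskeleton. Vincristine binds tubulin, blocks spindle assembly and arrests dividing cells in mitosis. Cells under such stress can induce heat shock proteins, which refold other proteins, and ATF-type transcription factors, which control genes of the integrated stress response.

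The levels of cell type markers went against the label. Of 15 T cell markers, 3 (CD3D, TRAC and TRBC1) reached a mean FPKM of 1 over the 6 libraries, and CD247, CD5, CD6 and LCK were listed at 0 in all 12. CD3E, which pairs with CD3D in the T cell receptor complex, was listed at 0 in all 6 vincristine libraries, whereas CD3D was 107 to 131. Of 8 erythroid markers 6 passed this level, with fetal globin HBG2 at 560 to 853 and HBG1 at 188 to 294. Of 9 epithelial or kidney markers 4 passed it, with the keratin KRT8 at 709 to 1186 and the adhesion molecule EPCAM at 83.1 to 123. Of 12 B cell markers 0 passed, and of 12 myeloid markers 5 did. The libraries are therefore called by their labels below, and the cells are given no other name. The summed T cell markers were 110.1 to 137 in NC+VCR and 109 to 115 in PTPN21+VCR, the erythroid markers 889.7 to 923 and 1106 to 1274, the epithelial or kidney markers 1696 to 1798 and 1679 to 2219, the myeloid markers 219.6 to 293 and 154 to 216, and the B cell markers 1.5 to 1.95 and 1.21 to 1.42. The erythroid, myeloid and B cell sums did not overlap between the groups, although 0 B cell markers passed the level. Of the 5 myeloid markers tested 3 had a log2 difference above 0 and 2 below, with a median of 0.03. ALAS2, the first enzyme of heme synthesis in red cell precursors, rose (log2 difference 0.79, adjusted p = 0.0409), and this call was lost without 9 of the 12 libraries in turn. The part of these markers in the results below was not tested.

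**Figure D1:**
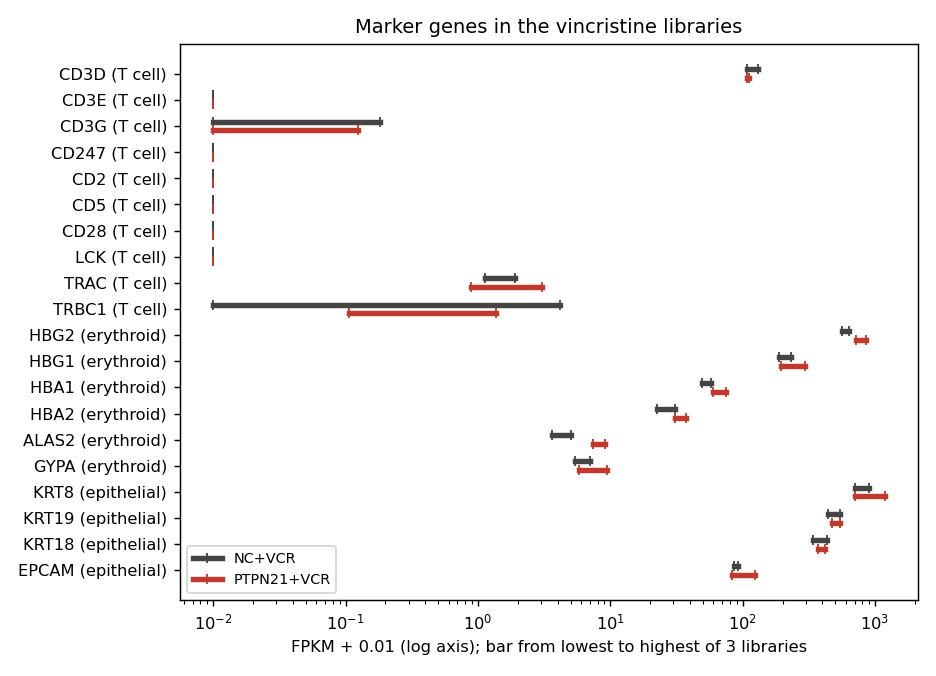
Levels of T cell, erythroid and epithelial marker genes in NC+VCR and PTPN21+VCR. Each bar runs from the lowest to the highest of 3 libraries on a log axis of FPKM + 0.01. CD3D, at 107 to 131, stands far from the other T cell markers shown, none of which exceeded 4.15 in a vincristine library, while HBG2 reached 853 and KRT8 1186.

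PTPN21 itself (ENSG00000070778, chr14:88465778-88554733 on the minus strand of GRCh38) was read first as a check of the labels. It had 0.569, 0.16 and 0.372 FPKM in NC+VCR and 6.53, 6.34 and 4.34 in PTPN21+VCR, with means of 0.367 ± 0.205 and 5.74 ± 1.21 (SD, n = 3). The groups did not overlap, and every library labelled as overexpressing was above every control library. The log2 difference was 2.29 (SE 0.217, adjusted p = 0.00048), on the log2(FPKM + 1) scale used throughout, on which a weakly expressed gene appears to change less than it does. The exact two-sided permutation test gave p = 0.1, the smallest p that 3 against 3 allows. Reads of the construct and of the endogenous gene are not separated in these values.

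Across the 10994 genes, 223 (2.03%) differed at an adjusted p under 0.05 by limma, 121 (1.1%) higher and 102 (0.928%) lower with the PTPN21 construct. All 223 had groups that did not overlap, against 22.9% of all genes tested (10.5% with the PTPN21+VCR libraries lower). The differences of the higher genes ran from 0.48 to 3.16 (median 0.87) and those of the lower genes from -0.39 to -2.60 (median -0.80), while the median of all genes was 0.03. The split of higher and lower genes moved with the processing. It was 54.3% higher as fitted, 41.8% after median ratio scaling and 35.5% after a correction for GC content and gene length. The 6 vincristine libraries fitted alone gave 141 calls (1.28%), of which 104 were shared with the 223. The count also depended on single libraries. It was 79 without NC+VCR replicate 1, 80, 45 and 63 without PTPN21+VCR replicates 1, 2 and 3, 141, 123 and 115 without PTPN21+DMSO replicates 1, 2 and 3, and 370 without NC+DMSO replicate 3. Of the 61 called genes that the naming rule chose, 23 were called whichever library was left out, and the text says where a gene was not among them.

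**Figure D2:**
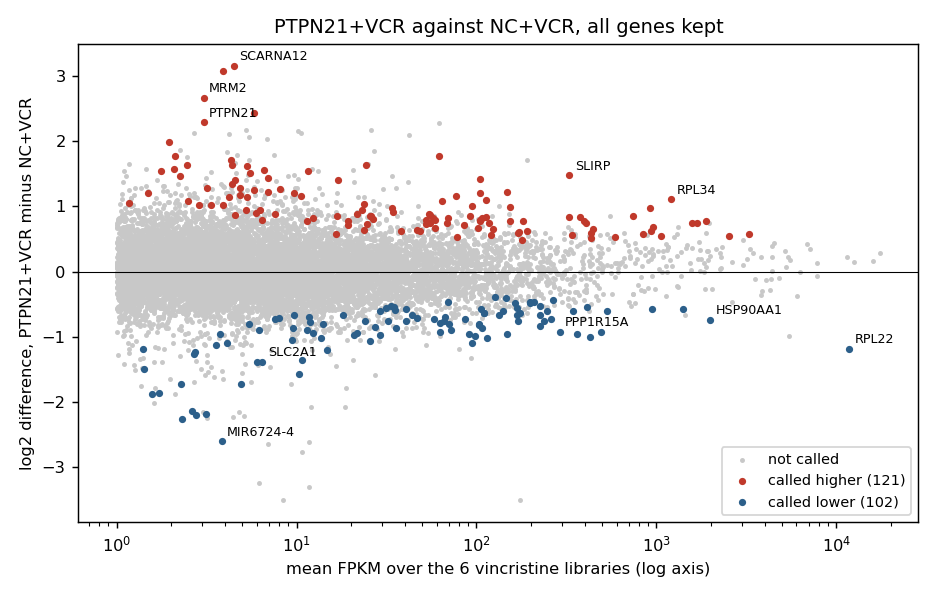
Log2 difference between PTPN21+VCR and NC+VCR against the mean FPKM of the 6 vincristine libraries (log axis), 1 point per gene. The 121 genes called higher and the 102 called lower lie on either side of 0, and SCARNA12, at 3.16, and MIR6724-4, at -2.60, are the farthest called genes in each direction.

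Depth and gene length moved with the groups. Steps in the low values of single-exon genes put the depth at about 16.7 to 17.7 M fragments in NC+VCR and 20.6 to 22.2 M in PTPN21+VCR, so depth and construct cannot be told apart. The coding genes called higher had a median exonic length of 2282 bases, those called lower 4262 and those not called 5024. Of the fifth of coding genes with the shortest exons 3.1% were called higher, with a median log2 difference of 0.15, and of the fifth with the longest 0.163% were, with a median of -0.04. The part of length and depth in the results was not tested beyond the correction for GC content and length.

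Of the 12 largest coding rises, 3 (MRM2, TIMM10B and SLIRP) were in genes of mitochondrial proteins, a group given no test. MRM2, which methylates mitochondrial ribosomal RNA, was listed at 0, 0 and 0.00511 FPKM in NC+VCR and at 6.59, 9.44 and 2.27 in PTPN21+VCR. It thus went from nearly no signal to a low level (adjusted p = 0.0051), while all 6 DMSO libraries had 8.91 to 15.3. TIMM10B, a chaperone of mitochondrial protein import, had 0.457, 2.23 and 0.829 against 10.7, 13.7 and 6.9 (log2 difference 2.44, SE 0.403, adjusted p = 0.0127), a call lost without NC+VCR replicate 1 or PTPN21+VCR replicate 2. SLIRP, which stabilizes mitochondrial messenger RNA, had 135, 168 and 222 FPKM in NC+VCR and 468, 500.3 and 476 in PTPN21+VCR. The 2 groups were far apart, and SLIRP rose by 1.48 (SE 0.155, adjusted p = 0.00112). RABAC1, a receptor for prenylated Rab proteins, had 3.45, 3.46 and 1.77 against 8.06, 11.1 and 11.7 (1.56, SE 0.232, adjusted p = 0.00673).

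The other large coding rises differed in how far they rested on single libraries. ZSWIM1 (1.63), LSM6 (1.63), a subunit of the ring that binds U6 small nuclear RNA, and CREB3L2 (1.47), a transcription factor held at the endoplasmic reticulum, lost their calls without 2, 3 and 3 of the 12 libraries. CHAMP1 (1.77), which acts in chromosome alignment, the zinc finger factor ZNF281 (1.64) and the RNA helicase DDX47 (1.54) lost theirs without 10, 9 and 10. HNRNPA1P48 rose by 1.77 (adjusted p = 0.00311), a call kept whichever library was left out, from 28.6, 25.5 and 27.8 FPKM to 103, 86 and 99.1. It is annotated as coding but is named as a copy of HNRNPA1, whose own level of 1969 to 2067 in NC+VCR and 1627 to 1832 in PTPN21+VCR was far higher, so its reads are uncertain. Of the 121 higher genes 19 were annotated as pseudogenes, against 2 of the 102 lower genes and 809 of the 10994 kept. The 19 include copies of RPSA and EEF1A1 that share sequence with the parent genes, and are uncertain in the same way.

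**Figure D3:**
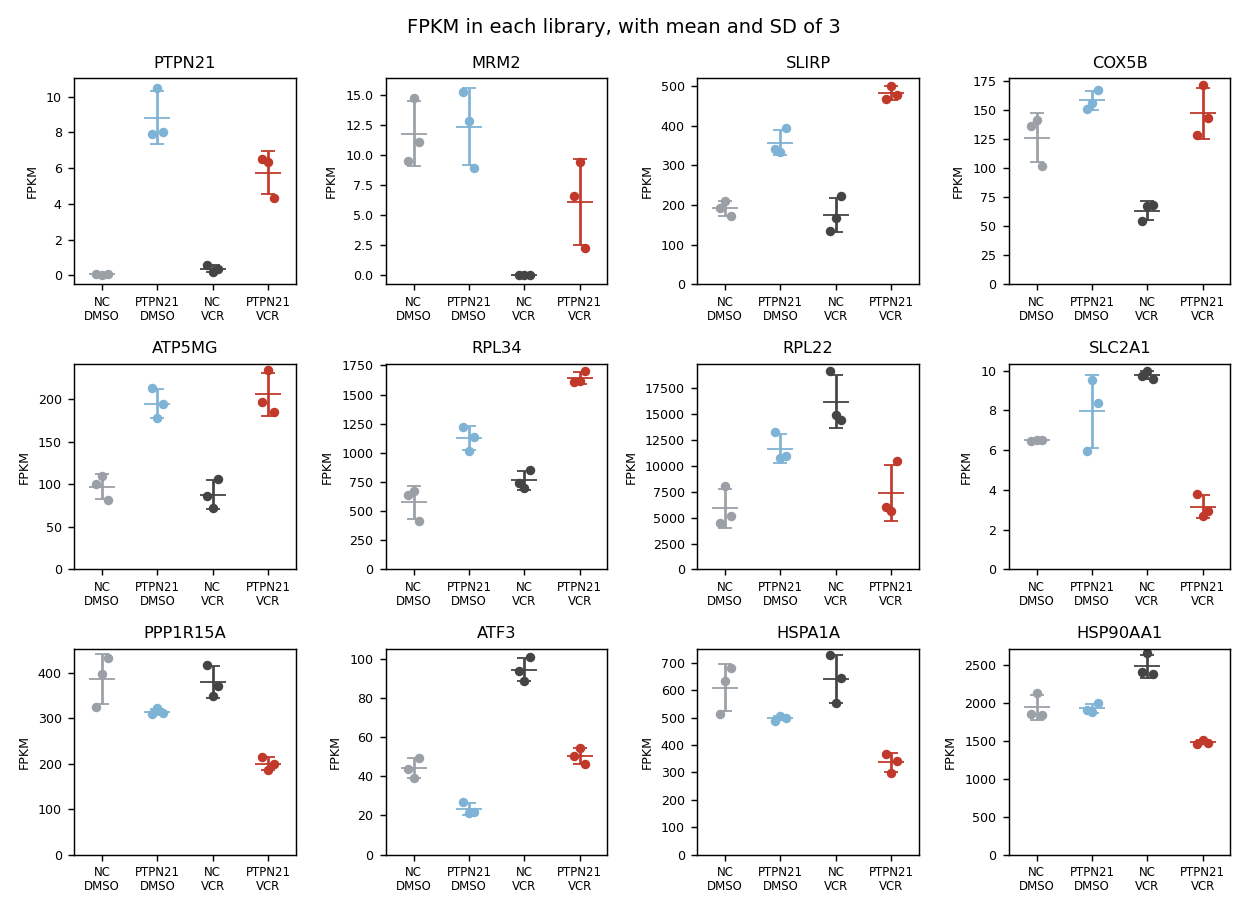
FPKM of 12 of the named genes in each library of the 4 groups, with the mean (bar) and SD (whiskers) of 3 libraries, on linear axes starting at 0 or just below it. PTPN21, MRM2, SLIRP, COX5B, ATP5MG and RPL34 are higher in every PTPN21+VCR library than in any NC+VCR library, and RPL22, SLC2A1, PPP1R15A, ATF3, HSPA1A and HSP90AA1 are lower.

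The nuclear genes of the respiratory chain and ATP synthase, which make up the machinery of oxidative phosphorylation, rose as far as they were called. Of 72 tested, 9 were called higher and 0 lower, 12.5% against 1.1% of all genes, and their median log2 difference was 0.42 against 0.03. The median FPKM of the list was 51, 50.9 and 55.7 in the NC+VCR libraries and 63.8, 70 and 72.1 in the PTPN21+VCR libraries, without overlap. COX5B, a subunit of complex IV, had 54.1, 67.6 and 68.5 against 128, 171 and 143 (log2 difference 1.20, SE 0.152, adjusted p = 0.00311). ATP5MG, a membrane subunit of ATP synthase, had 86.2, 72.5 and 106 against 197, 234 and 185 (1.22, SE 0.158, adjusted p = 0.00334). COX8A, also of complex IV, had 43.9, 32.3 and 47.7 against 89.9, 85.9 and 86.4 (1.08, SE 0.15, adjusted p = 0.00557). In all these genes the control libraries lay well below the lowest PTPN21+VCR library. UQCRFS1, the Rieske protein of complex III, rose by 0.85, a call lost without 9 of the 12 libraries. The list's genes were short, with a median exonic length of 2468 bases, and after the correction for GC content and length 5 were called higher, with a median of 0.34. The count of 9 fell to 4 without NC+DMSO replicate 1, any PTPN21+DMSO library, NC+VCR replicate 1 or NC+VCR replicate 2, to 3 without any PTPN21+VCR library, and rose to 18 without NC+DMSO replicate 3.

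Of the 37 mitochondrially encoded genes kept, 5 were called higher and 0 lower. The list of mitochondrially encoded genes held 15, of which 3 were called higher and 0 lower, with a median of 0.19. By comparison, 1.1% of all genes were called higher and 0.928% lower, and their median was 0.03. After the correction for GC content and length 2 of the 15 were called higher and the list's median was 0.05. MT-RNR1, the small mitochondrial ribosomal RNA, had 544, 647 and 657 FPKM in NC+VCR and 1104, 1406 and 1138 in PTPN21+VCR (0.98, SE 0.143, adjusted p = 0.00671). MT-CO3, a catalytic core subunit of complex IV, had 1319.8, 1295 and 1535 against 2460.5, 2355 and 2286 (0.78, SE 0.115, adjusted p = 0.00671). Both groups were tight and apart from each other. MT-CO2, of the same complex, rose by 0.58, a call lost without 8 of the 12 libraries and after the correction for GC content and length (adjusted p = 0.0789).

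Cytosolic ribosomal protein genes, which encode the proteins of the translating ribosome, were called higher in 10 of 79 (12.7%) and lower in 1. Over all genes 1.1% were called higher and 0.928% lower. The list's median log2 difference was 0.27, against 0.03 over all genes. The list's median FPKM was 1298, 1417 and 1289.8 in NC+VCR and 1774, 1766 and 1928 in PTPN21+VCR. RPL34, a large subunit protein, had 740.1, 701 and 856 against 1611, 1617 and 1702 (1.11, SE 0.163, adjusted p = 0.00671). RPS16 (0.75) and RPSA (0.74), both of the small subunit, also rose, each with a call lost without 2 of the 12 libraries. After the correction for GC content and length 6 were called higher and 2 lower, and after median ratio scaling 2 higher and 0 lower. The count of 10 was 6, 5 and 5 without PTPN21+DMSO replicates 1, 2 and 3, 6 without NC+DMSO replicate 1, 3 without NC+VCR replicate 1, 5, 2 and 1 without PTPN21+VCR replicates 1, 2 and 3, and 18 without NC+DMSO replicate 3.

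RPL22 (ENSG00000116251) was the ribosomal protein gene called lower, by 1.18 (log2 difference -1.18, SE 0.248, adjusted p = 0.0362). Its FPKM, 19095, 14922 and 14442 in NC+VCR and 6064, 5589 and 10441 in PTPN21+VCR, was far above the median of its list in every library. PTPN21+VCR replicate 3 lay closest to the control libraries. The call was lost without 7 of the 12 libraries (any PTPN21+DMSO library, NC+VCR replicate 1 or 2, and PTPN21+VCR replicate 1 or 2) and after median ratio scaling (adjusted p = 0.0645).

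Of 35 genes of ribosome biogenesis and RNA polymerase I, 2 were called higher and 1 lower, against 1.1% and 0.928% of all genes. The median of the list was -0.14, against 0.03 over all genes. NHP2, a core protein of the small nucleolar particles that convert uridine to pseudouridine, had 93.9, 99.7 and 117 FPKM against 213, 210.5 and 192 (0.99, SE 0.12, adjusted p = 0.0025). NOP10, of the same particles, had 70, 55.6 and 93.2 against 157, 153 and 152 (1.10, SE 0.18, adjusted p = 0.0119), a call lost without PTPN21+VCR replicate 2. RRP12, which acts in the maturation and export of ribosomal subunits, fell from 43.4, 29.5 and 32.3 to 16.8, 16.3 and 15.3 (log2 difference -1.06, SE 0.185, adjusted p = 0.0173), a call lost without NC+VCR replicate 1 or any PTPN21+VCR library.

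Of 23 heat shock proteins and targets of heat shock factor, 3 were called lower and 0 higher, against 0.928% and 1.1% of all genes. The median of the list was -0.21, against 0.03 over all genes. HSPA1A, an inducible HSP70, had 728, 553 and 645 FPKM in NC+VCR and 367, 299 and 342 in PTPN21+VCR (log2 difference -0.93, SE 0.131, adjusted p = 0.00588). Its neighbour HSPA1B had 551, 397 and 484 against 273, 219 and 244 (-0.95, SE 0.147, adjusted p = 0.00925, lost without PTPN21+VCR replicate 2). The coding sequences of this pair are nearly identical, so how reads were divided between them is uncertain. HSP90AA1, the inducible cytosolic HSP90, had 2409, 2654 and 2383 against 1459.9, 1510.3 and 1467 (-0.74, SE 0.0882, adjusted p = 0.00242). In each of these genes the highest PTPN21+VCR library was below the lowest control library. The list had 0 genes called lower where at least a 2-fold change was asked for, 6 after the correction for GC content and length, 5 without NC+DMSO replicate 3 or NC+VCR replicate 3 and 2 without PTPN21+VCR replicate 2.

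PPP1R15A and ATF3 stood out among the stress genes. PPP1R15A, which directs a phosphatase to the initiation factor eIF2α and so ends the integrated stress response, had 418, 349.8 and 372 FPKM in NC+VCR and 215, 186 and 199 in PTPN21+VCR (log2 difference -0.92, SE 0.117, adjusted p = 0.00311). ATF3, a stress-induced transcription factor, had 93.7, 88.7 and 101 against 50.2, 54.2 and 46.1 (-0.90, SE 0.133, adjusted p = 0.00673). DDIT4, an inhibitor of mTORC1 signalling, fell from 267, 250.1 and 278 to 190.3, 179.8 and 181 (-0.52, adjusted p = 0.0395), a call lost without 9 of the 12 libraries. PPP1R15A and DDIT4 were the 2 genes called among 42 ATF4 targets, whose median was -0.02. Among 20 AP-1 and immediate early genes ATF3 was the 1 called lower and IER2 the 1 called higher, with a median of -0.06. Over all genes 0.928% were called lower and 1.1% higher. IER2, a serum-induced nuclear protein, had 5.38, 3.16 and 4.61 against 12.5, 12.2 and 10.7 (1.27, SE 0.259, adjusted p = 0.0313), a call lost without PTPN21+DMSO replicate 3, NC+VCR replicate 1 or 2, or any PTPN21+VCR library.

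The 250 bases before the RefSeq start sites of PPP1R15A, HSPA1A, HSPA1B and HSP90AA1 are shown as examples. These stress genes fell together and differ in the response elements their promoters hold. The windows of ATF3 and DDIT4, which also fell, are described after the sequences. Capitals mark TGACGTCA, the cyclic AMP response element bound by ATF and CREB factors, and GAANNTTC or TTCNNGAA, paired units of the element bound by heat shock factors, searched on both strands.
PPP1R15A, chr19:48872171-48872420 (+): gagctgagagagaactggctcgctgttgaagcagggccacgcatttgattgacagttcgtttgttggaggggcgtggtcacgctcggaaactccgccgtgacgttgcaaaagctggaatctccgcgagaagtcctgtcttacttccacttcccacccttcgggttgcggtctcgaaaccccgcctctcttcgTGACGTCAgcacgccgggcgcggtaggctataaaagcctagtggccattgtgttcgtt
HSPA1A, chr6:31815293-31815542 (+): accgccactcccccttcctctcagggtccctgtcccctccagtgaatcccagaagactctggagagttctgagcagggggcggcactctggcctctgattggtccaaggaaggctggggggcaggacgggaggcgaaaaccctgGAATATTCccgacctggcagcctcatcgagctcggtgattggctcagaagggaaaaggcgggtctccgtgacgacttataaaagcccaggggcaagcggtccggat
HSPA1B, chr6:31827488-31827737 (+): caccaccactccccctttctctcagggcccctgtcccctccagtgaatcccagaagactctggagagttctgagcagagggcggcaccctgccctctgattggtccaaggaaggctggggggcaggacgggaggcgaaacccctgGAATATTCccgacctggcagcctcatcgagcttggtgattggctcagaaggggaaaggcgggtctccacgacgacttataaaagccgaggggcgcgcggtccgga
HSP90AA1, chr14:102087045-102087294 (-): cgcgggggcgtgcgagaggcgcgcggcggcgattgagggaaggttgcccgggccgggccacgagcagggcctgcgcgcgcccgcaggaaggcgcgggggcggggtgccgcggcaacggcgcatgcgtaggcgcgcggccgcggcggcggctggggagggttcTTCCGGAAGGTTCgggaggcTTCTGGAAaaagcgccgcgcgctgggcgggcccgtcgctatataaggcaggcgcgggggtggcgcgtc
Coordinates are those of GRCh38.p14. The other HSP90AA1 window in RefSeq held none of these letters. Neither window of ATF3 held any of them. The window of DDIT4, a gene of the ATF4 target list, held TTCNNGAA and no TGACGTCA. The elements thus did not divide the stress genes that fell by their lists. Of the 3 matches in HSP90AA1 the first GAANNTTC and TTCNNGAA share bases. Of all 35116 promoter windows 1.65% held TGACGTCA, 5.78% GAANNTTC and 6.62% TTCNNGAA. Among the coding genes with a window, GAANNTTC was found for 7 of 69 called lower (10.1%), 2 of 77 called higher (2.6%) and 5.57% of 7489 kept. HSPA1A, HSPA1B and HSP90AA1, shown above with this element, were themselves called lower, and the windows of HSPA1A and HSPA1B are nearly alike. No share was computed without them. TTCNNGAA was found for 15.9% of those called lower, 10.4% of those called higher and 7.28% of those kept. TGACGTCA was found for 2 of 69 called lower (2.9%), 3 of 77 called higher (3.9%) and 305 of 7489 kept (4.07%). The shares of called genes rest on few genes. For TGACGTCA they lie near that of all kept. For GAANNTTC and TTCNNGAA the share of the genes called lower was above that of all kept, a difference that was not tested. The matches are descriptions of sequence and were not tested as binding sites.

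Outside the apoptosis genes set aside, the largest coding falls had varied functions. SLC2A1, the glucose transporter GLUT1, had 9.76, 9.99 and 9.58 FPKM in NC+VCR and 3.82, 2.69 and 2.95 in PTPN21+VCR (log2 difference -1.38, SE 0.192, adjusted p = 0.00557). It was the only gene called among 21 of glycolysis and glucose transport (median -0.08), where 0.928% of all genes were called lower. ARMT1, which methylates acidic residues of proteins, had 16.6, 13.7 and 17.1 against 6.16, 6.42 and 4.17 (-1.36, SE 0.193, adjusted p = 0.00588). KCTD20 had 18.5, 14.6 and 14.7 against 4.29, 4.76 and 4.99 (-1.57, SE 0.295, adjusted p = 0.0232), a call lost without NC+VCR replicate 1 or any PTPN21+VCR library. The controls of these 3 genes were closely grouped, and none approached the PTPN21+VCR libraries.

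Other coding genes fell as well. CENPB, which binds centromeric satellite DNA, fell by 1.26 on the log2 scale, and CBX1, the heterochromatin protein HP1β, fell by 1.09, with calls lost without 3 and 5 libraries. SDC4, a heparan sulfate proteoglycan, fell by 1.21 (adjusted p = 0.0102, lost without PTPN21+VCR replicate 3). CDK11A, a kinase linked to splicing, fell by 1.02 (adjusted p = 0.0108, lost without PTPN21+VCR replicate 2), and is a near copy of CDK11B, which fell by 0.87. ELF3, an epithelial ETS factor (-1.49), SLC9A3R1, the membrane scaffold NHERF1 (-1.10), and FN3K, which removes fructosamine from proteins (-1.05), each lost their calls without 7 of the 12 libraries.

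Of the 4 largest rises outside the coding genes, 2 were in genes that overlap another on the same strand. SCARNA12, a small Cajal body RNA inside PHB2, had 0.0299, 0.186 and 0.0996 FPKM in NC+VCR and 8.77, 9.11 and 8.81 in PTPN21+VCR (adjusted p = 0.0231, lost without NC+VCR replicate 1 or any PTPN21+VCR library). AL137782.1, whose exons overlap LMO7 and UCHL3 on the same strand, was listed at 0 in all NC+VCR libraries and at 9.14, 4.62 and 9.57 in PTPN21+VCR (adjusted p = 0.000303). NRAV, a long noncoding RNA, had 2.27, 0.732 and 1.43 against 6.47, 9.96 and 4.93 (1.71, adjusted p = 0.0127, lost without PTPN21+VCR replicate 2). AC015871.7 rose by 1.99, a call lost without 9 libraries. Of the 32 coding and noncoding genes named for the size of their change, 14 had exons that overlap another gene, 9 of them on the opposite strand, and the sources used here do not state whether strand was used in counting.

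The largest noncoding falls were in very short RNAs. MIR6724-4 had 6.72, 8.16 and 6.97 FPKM in NC+VCR and 0.803, 0.221 and 0.15 in PTPN21+VCR (log2 difference -2.60, SE 0.221, adjusted p = 0.000303). MIR6724-2 fell by 2.20 (adjusted p = 0.00112) and MIR6724-1 by 2.18 (adjusted p = 0.00288). A Y_RNA copy (ENSG00000200502, chr9:37160137-37160237) had 5.06, 4.17 and 4.18 against 0.364, 0.0659 and 0.0251 (-2.26, adjusted p = 0.00242). In all 4 the control libraries lay close together and the PTPN21+VCR libraries were below 1 FPKM. The mature microRNA of the MIR6724 copies is shown because the hairpins of MIR6724-2 and MIR6724-4 are identical in RefSeq, so that reads cannot be assigned to one of them, with its seed (bases 2 to 8) in capitals.
hsa-miR-6724-5p, at chr21:8249515-8249537 (MIR6724-2) and chr21:8432540-8432562 (MIR6724-4), plus strand, GRCh38.p14 of RefSeq: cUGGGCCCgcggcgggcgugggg
RefSeq entries were matched for these 2 copies. Their hairpins are 92 bases long, and FPKM of genes this short rest on few fragments.

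Of the remaining lists with a call, each had 1 or 2 and none kept them throughout. Over all genes 1.1% were called higher and 0.928% lower. Among 56 G2/M and mitosis genes (median -0.11) CKS1B, a partner of cyclin-dependent kinases, was called higher (0.87, adjusted p = 0.0366) and TOP2A, the topoisomerase that untangles chromosomes, lower (-0.46, adjusted p = 0.0463). Among 49 genes of G1/S and DNA replication (median -0.05) the helicase subunit MCM4 was called lower (-0.92, adjusted p = 0.0421). The linker histone H1-4 (1.02, adjusted p = 0.0463) and the core histone H4C5 (0.87, adjusted p = 0.0428) were called higher among 30 replication-dependent histone genes (median 0.28). The antioxidant list (26 genes, median 0.12) had PRDX6, a peroxidase (0.53, adjusted p = 0.0322), and FTL, the ferritin light chain (0.63, adjusted p = 0.0444), called higher. MDM2, which targets p53 for degradation, was the 1 gene called among 20 p53 targets (1.14, adjusted p = 0.0445, median -0.03). These calls were lost without 8 to 10 of the 12 libraries in turn, and those of CKS1B, H1-4, H4C5 and PRDX6 also after the correction for GC content and length.

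In 19 of the 33 pathway lists no gene was called by limma. Of their 315 tested genes 61 had an unadjusted p under 0.05, a share near the 17.6% of all genes tested. The MAP kinase cascades (22 genes, 1 with an unadjusted p under 0.05) had a median of -0.10, and the p38 kinase MAPK14 had 2.36, 2.79 and 2.33 FPKM against 6.63, 5.08 and 5.42 (0.94, adjusted p = 0.138). Proteasome subunits (31 genes, 13 with an unadjusted p under 0.05) had a median of 0.29, and PSMB3 had a difference of 0.63 (adjusted p = 0.053). Among 24 genes of beta-tubulins, gamma-tubulins and related tubulins and of tubulin cofactors, a list without alpha-tubulins, 3 had an unadjusted p under 0.05. TUBB6 had 184, 185 and 50.2 against 42.8, 46.2 and 53.3, a difference of -1.32 (adjusted p = 0.109). The difference became -1.94 (adjusted p = 0.0029) without NC+VCR replicate 3, the low control library. In the other 11 fits with 1 library left out TUBB6 was not called. The lists for endoplasmic reticulum chaperones (25 genes), actin (26), cholesterol and fatty acid synthesis (27), lysosome and autophagy (26), proximal T cell receptor signalling (18) and interferon (17) were also without a call. A missed threshold does not show that their levels were alike.

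**Figure D4:**
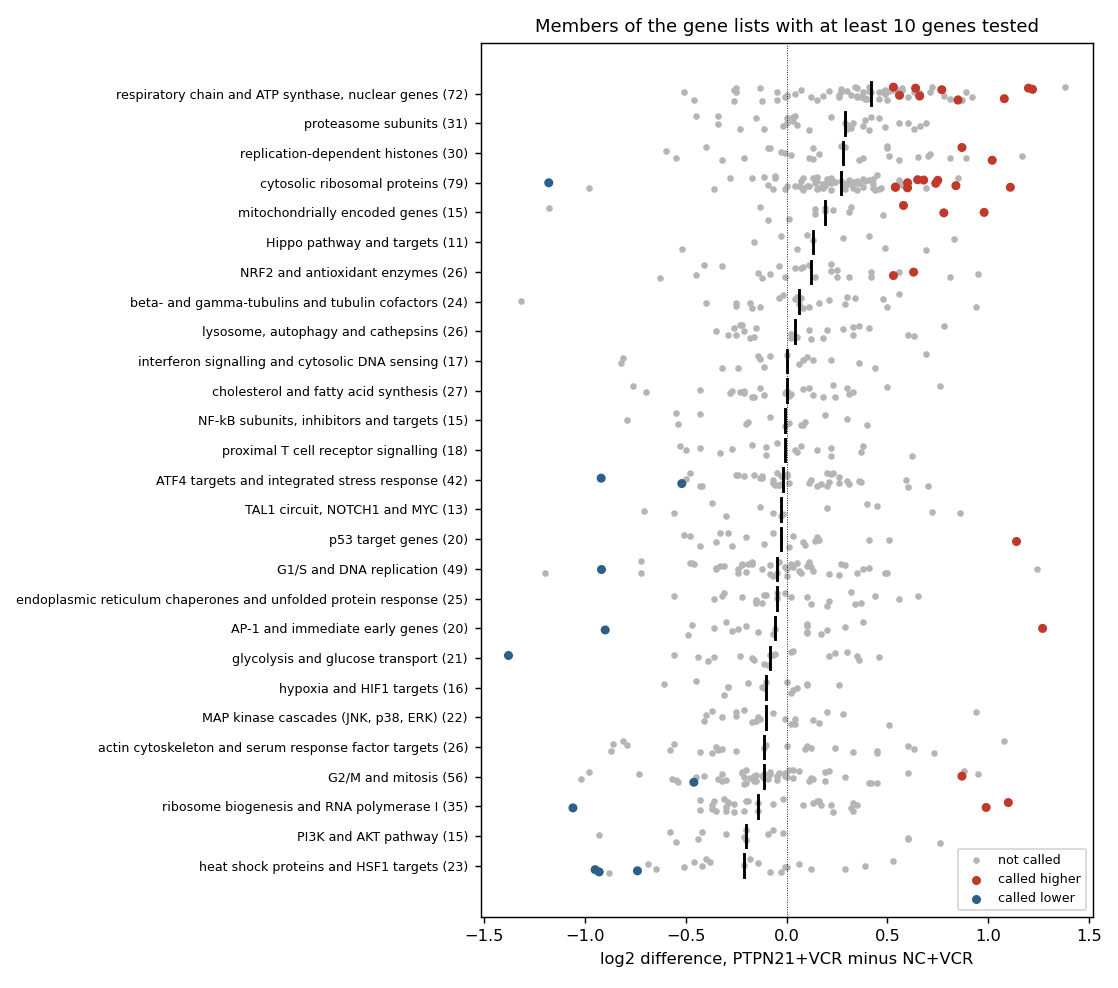
Log2 difference between PTPN21+VCR and NC+VCR of every tested member of the lists with at least 10 tested genes, 1 point per gene, with the list's median as a bar and the number tested in brackets. The respiratory chain list has a median of 0.42 and the heat shock list one of -0.21, and most members of every list are not called.

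Genes whose proteins were assayed in the study were read here as RNA, a different measure. Under vincristine the study reported less Bax and more Bcl-2 and Cyclin B1 protein with PTPN21. For the JNK pathway it reported less phosphorylation, which RNA levels do not show. CCNB1, the mitotic cyclin B1, had 143, 136 and 139 FPKM in NC+VCR and 124, 135 and 137 in PTPN21+VCR (-0.08, adjusted p = 0.818). CDK1, its kinase, had 48, 54.9 and 48.1 against 69.5, 68.5 and 64.1, without overlap (0.42, SE 0.108, adjusted p = 0.0686). The pro-apoptotic BAX (0.41, adjusted p = 0.43) and MAPK8, which encodes JNK1 (0.02, adjusted p = 0.988), did not pass the test, and their groups overlapped. The anti-apoptotic BCL2 had at most 0.379 FPKM in any of the 6 libraries and was not tested.

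Of the 223 called genes, 173 (77.6%) had the same direction with the construct in DMSO, against 58.7% of all genes tested. Among the 75 called genes with at least a 2-fold change the share was 61.3%. The DMSO comparison shares no library with the vincristine comparison, but both were fitted in one model. Depth and length moved with the construct in DMSO as well. The depth was about 14.5 to 16.3 M fragments in NC+DMSO and 22.3 to 24.0 M in PTPN21+DMSO, and the median log2 difference ran from 0.13 in the fifth of coding genes with the shortest exons to -0.35 in the fifth with the longest. Their part in the shared direction was not tested. The 121 higher genes had a median log2 difference of 0.34 in DMSO and the 102 lower genes -0.24, against -0.14 over all genes. In DMSO 51 of the 223 were called in the same direction and 7 in the opposite one (6.93% of all genes were called in DMSO, 2.82% higher and 4.11% lower). SLIRP rose in DMSO as well (0.89, adjusted p = 0.0117), as did ATP5MG (1.00, adjusted p = 0.00809), and ATF3 fell (-0.91, adjusted p = 0.00664). COX5B (0.33, adjusted p = 0.191), HSP90AA1 (-0.01, adjusted p = 0.968) and PPP1R15A (-0.28, adjusted p = 0.152) were not called there. The list medians in DMSO were 0.33 for the respiratory chain, 0.38 for cytosolic ribosomal proteins and -0.28 for heat shock. Under vincristine they were 0.42, 0.27 and -0.21. The median of all genes was -0.14 in DMSO and 0.03 under vincristine, and each list lay on the same side of it in both. Whether the size of these shifts differed between vincristine and DMSO was not tested. For the mitochondrially encoded list the median was -0.08 in DMSO and 0.19 under vincristine. The test of the difference between the vincristine and DMSO comparisons, the interaction, passed for 14 genes (0.127%, with 0.0273% positive), 9 of them among the 223. For COX5B (adjusted p = 0.134), HSP90AA1 (adjusted p = 0.0504) and PPP1R15A (adjusted p = 0.157) it did not pass.

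**Figure D5:**
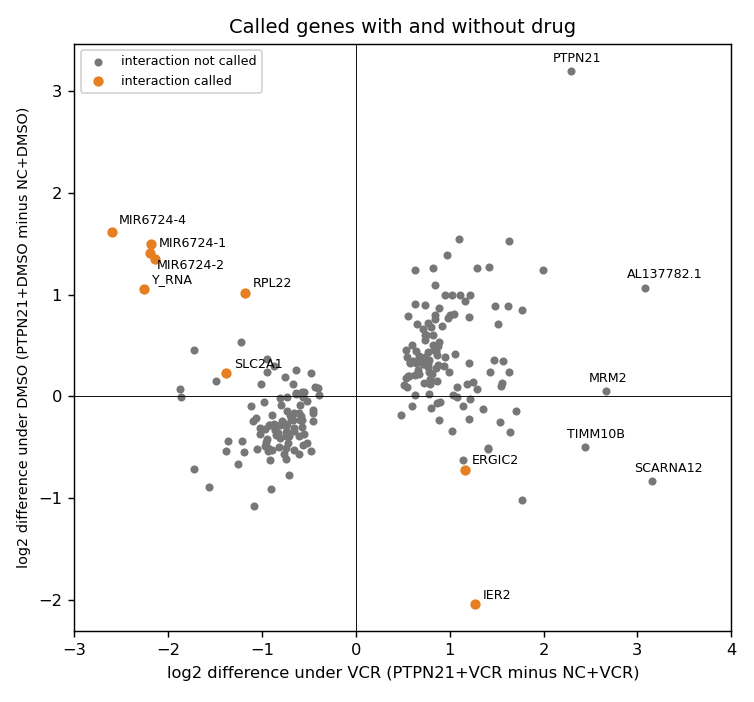
Log2 difference by construct under vincristine (horizontal) and under DMSO (vertical) of the 223 genes called under vincristine, with the 9 that passed the interaction test in orange. Most points, 173 of 223, lie in the quadrants of the same sign, and IER2, RPL22, a Y_RNA copy, ERGIC2, SLC2A1 and the MIR6724 copies lie in the others.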

How the data were processed

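RNA-seq values of 12 libraries (4 groups of 3) were deposited as FPKM for 60671 Ensembl genes. The submitters' processing notes name fastp, Bowtie2 and the mouse build mm10, while the gene identifiers are human, and the build and counter behind the FPKM values that the authors deposited are otherwise not given in the sources used here. Positions, exonic lengths and overlaps come from GENCODE release 29 (GRCh38), which held 96.3% of the genes.

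Genes whose FPKM averaged 1 or more across the 6 vincristine libraries were fitted on log2(FPKM + 1) with limma 3.58.1 (R 4.3.3), using all 12 libraries in 4 groups for 1 estimate of the spread, a mean-variance trend and Benjamini-Hochberg adjustment at 0.05 over all genes kept. The interaction was the difference between the vincristine and DMSO contrasts. Depth was estimated from steps in the values of 7754 single-exon genes and is approximate, since 35.4 to 45.3% of the values lay within 0.1 of a whole step, against 20% by chance. Named genes were PTPN21, the 12 coding and 4 other genes with the largest called change in each direction, up to 4 called genes per list and direction, 2 per list with none called, and the 5 genes of the study's protein assays. HNRNPA1, CDK11B, ERGIC2, the genes under other observations and marker genes outside this rule were chosen after their values were seen. The members and the 38 gene lists were chosen with earlier results of these data known. Scripts were tested on simulated data. A called gene of the ribosomal protein list is not reported here.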

Additional observations from a re-analysis of the deposited data

Results flagged for a closer look

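The effect of the PTPN21 construct differed between vincristine and DMSO, by the interaction test of limma, for 8 of the named genes. SLC2A1 had 6.46, 6.53 and 6.51 FPKM in NC+DMSO and 5.94, 9.54 and 8.38 in PTPN21+DMSO, and its interaction was -1.62 (adjusted p = 0.0489), a call lost without 11 of the 12 libraries in turn, with no filter, on the TPM scale and with the replicate block. RPL22, lower with the construct under vincristine, had 4448, 8055 and 5189 in NC+DMSO and 13275, 10701 and 10963 in PTPN21+DMSO, with an interaction of -2.20 (adjusted p = 0.036), a call lost without 9 of the 12 libraries, with no filter, without the mean-variance trend and with the block. IER2 went the other way, with 15.6, 21.3 and 23.6 against 2.66, 6.16 and 3.97 in DMSO and an interaction of 3.31 (adjusted p = 0.0021), called whichever library was left out.

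FBXW7, the substrate receptor of a ubiquitin ligase, had 17.4, 14.2 and 23.1 FPKM against 7.64, 7.92 and 6.1 in DMSO, and 3.55, 4.37 and 5.25 against 9.87, 7.35 and 9.05 under vincristine. Its interaction was 2.07 (adjusted p = 0.0213, lost without 4 of the 12 libraries, NC+DMSO replicate 1, PTPN21+DMSO replicate 3 and PTPN21+VCR replicates 1 and 3, and with no filter or with the block), although its vincristine comparison alone did not pass (0.86, adjusted p = 0.0595). The interactions of MIR6724-4 (-4.22, adjusted p = 0.000119), MIR6724-2 (-3.61, adjusted p = 0.000655), MIR6724-1 (-3.68, adjusted p = 0.00138) and the Y_RNA copy (-3.31, adjusted p = 0.00228) rest on very short genes. After the correction for GC content and length that of MIR6724-4 was -2.59, that of MIR6724-2 -1.98 and that of MIR6724-1 -2.05, and with the replicate block added the last 2 were no longer called (adjusted p = 0.0596 and 0.063). The MIR6724 copies were listed at 0 in all NC+DMSO libraries.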

How the results depend on the processing

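PTPN21 kept its direction and its call under the alternatives that tested it (with a minimum of 5 FPKM it was not tested), with a log2 difference of 2.18 to 2.45 when 1 library was left out, and the share of called genes with the same direction in DMSO was between 68.4% and 82.2% in those fits and 61.3% among the genes with a 2-fold change. The count of 223 called genes was 131 with no filter on low values, 344 where the mean had to reach 5 FPKM, 141 after median ratio scaling, 89 without the mean-variance trend, 141 in the 6 vincristine libraries alone (104 of them shared with the 223), 75 with a 2-fold minimum, and 45 to 370 when 1 library was left out. The count of 8 interaction calls among named genes was 5 either without the filter or with the minimum at 5 FPKM, and 5 to 9 when 1 library was left out. EPCAM, not called, went to -0.04 after the correction for GC content and length, and MAPK8, not called, to -0.03 on the TPM scale. With 1 library left out, EPCAM ran from -0.07 to 0.20, MAPK8 from -0.38 to 0.28 and TRBC1 from -1.01 to 0.17. The causes were not tested, except that leaving out libraries leaves fewer samples. A count test such as edgeR was not run, because the files hold FPKM.

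Replicate numbers did not pair the samples. Over 18 pairs of same-numbered libraries the correlation of deviations ran from -0.159 to 0.0594, and 0 were above 0.1. With the replicate block 79 genes were called and 5 of the 8 interactions. With the block and the correction for GC content and length together the values were 134 and 3, and EPCAM was -0.04.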

Other observations

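Genes of nuclear speckles and splicing were seen among the lower calls, a group chosen after its values were seen and given no test. RBM25, a splicing regulator, had 147, 118 and 133 FPKM in NC+VCR and 75, 76.1 and 73.2 in PTPN21+VCR. PNISR (-1.01), SREK1 (-0.98), ARGLU1 (-0.96), PNN (-0.72), SFPQ (-0.61) and LUC7L3 (-0.57) were lower as well. Also chosen after their values were seen, and given no count or test, were the higher calls of the mitochondrial import subunits TIMM17B (0.83) and PAM16 (1.04), the cristae protein MICOS13 (1.21), the inner membrane protease OMA1 (1.18) and malate dehydrogenase MDH2 (0.86).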
